A study of Homo sapiens with 6 samples.

Results

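The transcripts described are those of 40 genes of glucose breakdown and of the cellular response to low oxygen, chosen by name: 24 glucose and lactate transporters, glycolytic enzymes and their regulators, and 16 hypoxia-inducible factor (HIF) subunits, oxygen sensors and HIF-induced genes. They were measured in SK-N-AS, an established human neuroblastoma line, under 3 culture conditions, with 2 arrays for each. Monolayer cells grew attached, without pretreatment, and Sphere cells grew as spheroids in serum-free medium, also without pretreatment. The cells labelled iCSC had as an attached layer received 5AdC (the DNA methyltransferase inhibitor 5-aza-2'-deoxycytidine) at 2.5 uM for 5 days and were then grown as serum-free spheroids, so Sphere and iCSC share the medium and the spheroid form, while iCSC differs from Monolayer in both drug and culture. Per the labels all 3 cultures derive from this single line. Whole chromosomes nevertheless shifted in median expression between the cultures, and lists of cell type markers differed strongly. Values are given beside some of the results they move with. Whether the cultures share 1 karyotype and identity was not tested. The series compares the stem cell phenotype of these cultures. No label gives the oxygen level, the glucose in the medium or the size of the spheroids.

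Of the 40 genes, 37 had a probe set annotated to that gene alone, and 36 of these were tested among 10459 genes. The lactate transporters SLC16A1 and SLC16A3 and the carbonic anhydrase CA9 had no such probe set and were not analysed here. CA12, a second membrane carbonic anhydrase, stayed below the background limit, set at log2 5, on all 6 arrays (2.26 to 3.61) and was not tested. Each tested gene is represented by its probe set with the highest mean over the arrays, among those at the limit or above on at least 2 of 6 arrays. Values are log2 GCRMA signals, comparable between arrays but not between genes. Differences are log2 differences of culture means ± SE (n = 2 arrays per culture), tested with limma, with p-values adjusted by Benjamini and Hochberg's method over the 10459 genes. A difference is called rose, fell, higher or lower where the adjusted p was under 0.05. Whether the arrays of 1 condition hold RNA from separately grown cells is not stated in the labels, so these p-values measure only the spread between arrays, which may be technical. Sphere and iCSC were each set against the same Monolayer arrays, and the iCSC to Sphere comparison uses the same Sphere arrays again, so the 3 comparisons are not independent. In these bulk samples, fewer cells of a kind and less RNA per cell cannot be told apart.

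Glycolysis splits glucose, taken up by the SLC2A (GLUT) transporters, into pyruvate in a fixed chain of enzymatic steps, and lactate dehydrogenase turns pyruvate into lactate when it is not oxidised in mitochondria. HIF transcription factors pair an oxygen-labile alpha subunit, HIF1A or EPAS1 (HIF-2 alpha), with the stable subunit ARNT. In normal oxygen the EGLN prolyl hydroxylases mark the alpha subunits for destruction, so HIF activity is set mainly at the protein level, which expression arrays do not measure. In low oxygen HIF binds short elements with the core ACGTG or GCGTG and raises transcription of most glycolytic genes and of genes such as ADM, BNIP3 and EGLN3. In neuroblastoma, EPAS1 is also known as a gene of immature sympathetic cells.

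The 250 bases before the start site are printed for 6 members, picked among those with at least 1 such core there. They do not show how often members that moved carry a core. ALDOC, with 5 matches there, is not printed, nor are EGLN3 and SLC2A1, which moved more than ENO2 and had 0. The letters run 5' to 3' on the strand of the gene. Every ACGTG or GCGTG on either strand (CACGT and CACGC when read on the opposite strand) is in capitals. The palindrome CACGTG counts as 2 overlapping matches. Sequences and coordinates are from RefSeq, assembly GRCh38.p14. BNIP3 lies at chr10:131981924-131982173 on the minus strand and has 6 matches, and LDHA at chr11:18394313-18394562 on the plus strand has 5. STC2 at chr5:173328415-173328664 on the minus strand has 3, ENO2 at chr12:6914330-6914579 on the plus strand has 1, ADM at chr11:10304823-10305072 on the plus strand has 1, and EPAS1 at chr2:46297157-46297406 on the plus strand has 1.
BNIP3: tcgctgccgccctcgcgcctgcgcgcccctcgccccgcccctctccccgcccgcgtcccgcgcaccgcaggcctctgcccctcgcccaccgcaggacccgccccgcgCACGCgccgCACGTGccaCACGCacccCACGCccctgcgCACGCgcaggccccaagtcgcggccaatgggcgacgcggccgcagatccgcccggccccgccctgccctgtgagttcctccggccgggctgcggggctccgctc
LDHA: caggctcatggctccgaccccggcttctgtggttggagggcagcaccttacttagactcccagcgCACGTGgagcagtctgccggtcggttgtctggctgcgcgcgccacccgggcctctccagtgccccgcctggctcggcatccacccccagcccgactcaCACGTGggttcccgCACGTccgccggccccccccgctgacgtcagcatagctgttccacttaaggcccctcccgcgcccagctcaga
STC2: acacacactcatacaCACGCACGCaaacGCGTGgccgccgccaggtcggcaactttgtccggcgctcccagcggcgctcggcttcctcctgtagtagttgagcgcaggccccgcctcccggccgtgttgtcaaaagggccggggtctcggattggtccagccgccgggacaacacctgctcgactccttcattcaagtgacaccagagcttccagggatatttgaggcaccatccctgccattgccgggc
ENO2: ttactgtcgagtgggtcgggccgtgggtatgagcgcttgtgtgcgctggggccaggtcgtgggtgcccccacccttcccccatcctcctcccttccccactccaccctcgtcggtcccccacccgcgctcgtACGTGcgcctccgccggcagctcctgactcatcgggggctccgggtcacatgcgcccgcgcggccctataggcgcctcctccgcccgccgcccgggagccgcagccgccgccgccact
ADM: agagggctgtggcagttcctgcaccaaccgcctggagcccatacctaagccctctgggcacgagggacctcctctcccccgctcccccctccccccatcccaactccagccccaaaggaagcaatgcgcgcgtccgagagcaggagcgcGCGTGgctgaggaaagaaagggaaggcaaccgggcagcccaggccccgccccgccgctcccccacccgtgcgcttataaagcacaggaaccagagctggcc
EPAS1: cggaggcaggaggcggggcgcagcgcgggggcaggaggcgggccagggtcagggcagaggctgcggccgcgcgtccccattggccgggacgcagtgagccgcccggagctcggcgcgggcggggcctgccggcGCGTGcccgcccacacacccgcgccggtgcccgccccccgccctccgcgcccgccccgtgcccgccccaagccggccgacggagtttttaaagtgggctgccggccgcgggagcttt

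Among the 36 members with a promoter in the RefSeq table, 28 (77.8%) held at least 1 core in the window from 250 bases before to 50 after the start site. The same letters occurred in 47.8% of all 27305 promoters of this length and in 63.7% of the 8665 promoters of tested genes, so a match by itself is common. The share was 16 of 22 for glycolytic and 12 of 14 for HIF members. A core stood in 6 of 8 promoters of members that rose in Sphere against Monolayer, in 11 of 13 of those that fell and in 9 of 12 of those with no call, so promoters with and without the letters occurred in each group. BNIP3 and STC2, with 6 and 3 upstream matches, moved in opposite directions between Monolayer and Sphere. EGLN3, which rose, and P4HA2, which had no call there, had none in the 250 bases before the start site. A match describes these letters only and says nothing of binding by a factor.

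Between Monolayer and Sphere, glycolytic transcripts fell more often than they rose. Of the 22 tested glycolytic members, 10 fell, 4 rose and 8 had no call, with a median difference of -0.44 against 0.01 over all tested genes. In this comparison 59.0% of all 10459 genes were called, 30.0% higher and 29.1% lower, so the called share of the glycolytic members (63.6%) was near the background. Both tested glucose transporters fell, as did HK2, GPI, PFKP, ALDOA, PGAM1, ENO1, PKM and LDHA. PFKM, TPI1, ENO2 and LDHB rose. The arrays of both cultures did not overlap for 18 of the 22 (84.2% of all genes). Changes of at least 2-fold were called for 2 higher and 4 lower members, against 16.1% and 12.5% of all genes. Without Sphere replicate 1 the median was -0.18.

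iCSC differed from Sphere in few glycolytic transcripts. There 3 of 22 rose (SLC2A3, PFKP and PDK1), 2 fell (SLC2A1 and ENO2) and 17 had no call, against 38.5% of all tested genes called (19.3% higher and 19.2% lower), and the median was 0.13 against 0.01 over all tested genes. The arrays did not overlap for 15 of 22 (69.4% of all genes), and at least 2-fold calls were 2 higher (SLC2A3 and PFKP) and 1 lower (SLC2A1), against 7.47% and 9.07% of all genes. Against Monolayer, 5 of 22 were higher in iCSC (PFKM, TPI1, ENO2, LDHB and PDK1) and 5 lower (SLC2A1, GPI, PFKFB3, ALDOA and LDHA), with 55.6% of all genes called (29.0% higher and 26.6% lower) and a median of -0.12 against 0.02. Here 14 of 22 did not overlap (79.8% of all genes), and 3 were at least 2-fold higher and 3 lower, against 14.2% and 11.0%. This count of 10 became 6 without Monolayer replicate 1 and 5 without Monolayer replicate 2.

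**Figure D1:**
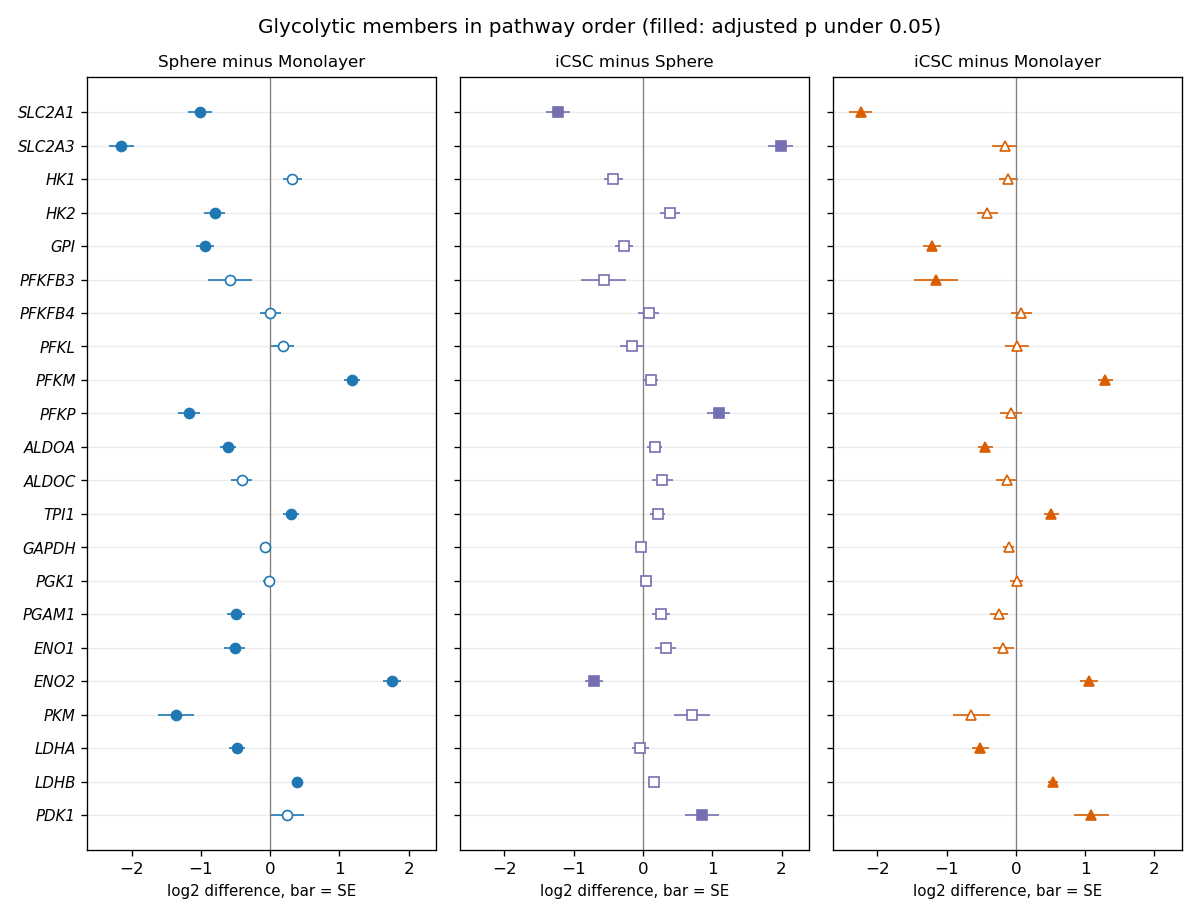
Log2 differences (x axis, bar = SE) of the 22 tested glycolytic members, in pathway order from glucose uptake at the top to PDK1 at the bottom, in the 3 comparisons. Filled symbols have an adjusted p under 0.05: 14 in Sphere minus Monolayer, 5 in iCSC minus Sphere and 10 in iCSC minus Monolayer.

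The glucose transporters opened the pathway with different courses. SLC2A1 (GLUT1), the basal glucose transporter of most cells, read 7.36 and 7.22 on the Monolayer arrays, 6.37 and 6.19 in Sphere, and 5.06 and 5.03 in iCSC. The 3 cultures did not overlap and the iCSC arrays stood just above background. SLC2A1 fell by 1.01 ± 0.17 from Monolayer to Sphere (limma, adjusted p = 0.00227), and was lower again in iCSC, by -1.23 ± 0.17 against Sphere (adjusted p = 0.00184) and by -2.24 ± 0.17, a fold of 4.72, against Monolayer (adjusted p = 8.4e-05).

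SLC2A3 (GLUT3), a high-affinity transporter typical of neurons, read 7.78 and 7.46 in Monolayer, 5.43 and 5.51 in Sphere, and 7.54 and 7.38 in iCSC. Only the Sphere arrays stood apart, while Monolayer and iCSC overlapped. SLC2A3 fell by 2.15 ± 0.18 in Sphere (limma, adjusted p = 0.000106) and was 1.99 ± 0.18 above Sphere in iCSC (adjusted p = 0.000307), with -0.16 ± 0.18 between iCSC and Monolayer (adjusted p = 0.478). All 3 of its probe sets fell in Sphere and rose in iCSC against Sphere, but 1 of them was lower in iCSC than in Monolayer (-1.26, adjusted p = 0.0047 in the fit over all probe sets). A probe set shared with its near-identical paralog SLC2A14 moved in the same directions, with -1.95 in Sphere (adjusted p = 0.00996) and 1.69 in iCSC against Sphere (adjusted p = 0.0297), and the other shared probe set fell in Sphere (-1.72, adjusted p = 0.00667) and had no call in iCSC against Sphere (0.73, adjusted p = 0.155).

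The first steps of glycolysis phosphorylate and split glucose. HK2, the hexokinase bound to mitochondria that many tumours induce, read 11.05 and 11.26 in Monolayer, 10.17 and 10.53 in Sphere, and 10.82 and 10.66 in iCSC. Its Sphere arrays were the lowest, and HK2 fell by 0.80 ± 0.15 there (limma, adjusted p = 0.00357), although its other 2 probe sets had no call (-0.15 and -0.13) and the mean of its probe sets gave -0.36 (adjusted p = 0.07). HK1, the constitutive hexokinase, lay between 9.62 and 10.27 on all arrays and was not called in any comparison. GPI, which turns glucose 6-phosphate into fructose 6-phosphate, read 12.45 and 12.35 in Monolayer, 11.41 and 11.5 in Sphere, and 11 and 11.38 in iCSC. Both spheroid cultures lay below Monolayer, and GPI fell by 0.94 ± 0.13 in Sphere (adjusted p = 0.00113) and was lower by -1.21 ± 0.13 in iCSC than in Monolayer (adjusted p = 0.000469).

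Phosphofructokinase, the committed step, has muscle (PFKM), platelet (PFKP) and liver (PFKL) forms, and their transcripts moved apart. PFKM read 10.01 and 9.91 in Monolayer, 11.25 and 11.03 in Sphere, and 11.29 and 11.22 in iCSC. Both spheroid cultures stood above Monolayer, by 1.18 ± 0.11 for Sphere (limma, adjusted p = 0.000161) and 1.29 ± 0.11 for iCSC (adjusted p = 0.000135). PFKP read 11 and 10.98 in Monolayer, 9.69 and 9.96 in Sphere, and 10.71 and 11.12 in iCSC. Only Sphere stood apart: PFKP fell by 1.17 ± 0.16 there (adjusted p = 0.00102) and was 1.09 ± 0.16 above Sphere in iCSC (adjusted p = 0.00258), with -0.07 ± 0.16 between iCSC and Monolayer (adjusted p = 0.738). The call between iCSC and Sphere was lost without variance moderation (adjusted p = 0.0531). PFKL lay between 7.14 and 7.48 with no call in any comparison.

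The PFKFB enzymes make and break down fructose 2,6-bisphosphate, which activates phosphofructokinase. PFKFB3, the form induced by HIF, read 9.92 and 9.73 in Monolayer, 8.72 and 9.76 in Sphere, and 8.8 and 8.55 in iCSC. The Sphere arrays disagreed, 1 at the Monolayer level and 1 at the iCSC level, and PFKFB3 was called only between iCSC and Monolayer (-1.15 ± 0.32, limma, adjusted p = 0.0225). Leaving out any 1 array of either of these cultures lost that call, with an adjusted p between 0.0519 without iCSC replicate 1 and 0.13 without Monolayer replicate 1. Without Sphere replicate 2, PFKFB3 was also lower in Sphere than in Monolayer (-1.1, adjusted p = 0.00809), and without Sphere replicate 1 it was lower in iCSC than in Sphere (-1.09, adjusted p = 0.0155). PFKFB4 stayed between 6.65 and 6.79 on all 6 arrays. It lies on chromosome 3, where 52.8% of 585 tested genes were lower in Sphere than in Monolayer, with a median of -0.46. With chromosome medians removed, PFKFB4 was called higher in Sphere and in iCSC than in Monolayer (0.46 and 0.50, limma, adjusted p = 0.0377 and 0.0314). The part of the chromosome 3 shift was not tested.

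Aldolase and triose phosphate isomerase close the first phase. ALDOA, the aldolase of most tissues, fell by 0.61 ± 0.11 in Sphere (limma, adjusted p = 0.00348) and was -0.44 ± 0.11 lower in iCSC than in Monolayer (adjusted p = 0.0153), a call lost without Monolayer replicate 1 (adjusted p = 0.112), Monolayer replicate 2 (0.0533) or iCSC replicate 1 (0.0707). ALDOC, the brain form, gave -0.41 ± 0.15 in Sphere with no call (adjusted p = 0.0554). TPI1 rose by 0.30 ± 0.11 in Sphere at the edge of the threshold (adjusted p = 0.0498), a call that 12 of the 15 alternative settings run for it lost or turned. It was 0.51 ± 0.11 higher in iCSC than in Monolayer (adjusted p = 0.00712), lost without Monolayer replicate 2 (adjusted p = 0.0632).

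In the second phase, which yields ATP, GAPDH and PGK1 had no call in any comparison. GAPDH lay between 14.82 and 15.04 and PGK1 between 13.72 and 13.92 on all 6 arrays, and the differences ranged from -0.10 ± 0.08 to -0.03 ± 0.08 for GAPDH and from -0.02 ± 0.09 to 0.04 ± 0.09 for PGK1. PGAM1 (phosphoglycerate mutase) gave -0.50 ± 0.13 and ENO1 (the enolase of most tissues) -0.51 ± 0.15 in Sphere (limma, adjusted p = 0.0181 and 0.0229). Both calls were lost without Monolayer replicate 1 (adjusted p = 0.112 for PGAM1 and 0.147 for ENO1), Monolayer replicate 2 (0.0742 and 0.0594) or Sphere replicate 1 (0.107 and 0.138).

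The enolases diverged. ENO2, the neuron-specific enolase used as a serum marker of neuroblastoma, read 9.57 and 9.49 in Monolayer, 11.3 and 11.29 in Sphere, and 10.4 and 10.77 in iCSC. The cultures did not overlap, with Sphere highest and iCSC between. ENO2 rose by 1.76 ± 0.13, a fold of 3.4, in Sphere (limma, adjusted p = 7.39e-05), and iCSC was 1.05 ± 0.13 above Monolayer (adjusted p = 0.000891) and -0.71 ± 0.13 below Sphere (adjusted p = 0.00752). The last of these was lost without Sphere replicate 1 (adjusted p = 0.0524). ENO2 is also expressed by sympathetic neuroblasts, whose marker list moved in the same order as a sum, though not in every member. Its summed signal was 10.25 and 9.9 (log2) in Monolayer, 15.3 and 15.03 in Sphere, and 12.77 and 13 in iCSC. Of the 10 listed neuroblast markers 8 were tested (3 through the filter), all higher in Sphere than in Monolayer and 7 lower in iCSC than in Sphere, while DBH was under the limit on all arrays. Between iCSC and Monolayer 5 of the 8 markers were higher, 1 was lower (ISL1, -1.14) and 2 had no call. Their part in the ENO2 result was not tested.

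PKM, which makes pyruvate and ATP, read 13.47 and 13.35 in Monolayer, 11.86 and 12.25 in Sphere, and 12.37 and 13.17 in iCSC. Sphere was lowest, and the iCSC arrays were spread widely between the other cultures. PKM fell by 1.36 ± 0.26 in Sphere (limma, adjusted p = 0.00426), a call lost without variance moderation (adjusted p = 0.0668). Between iCSC and Sphere it differed by 0.71 ± 0.26 with no call (adjusted p = 0.0709), and without iCSC replicate 1 by 1.11 (adjusted p = 0.00635). Against Monolayer iCSC differed by -0.64 ± 0.26 with no call (adjusted p = 0.0734), and without iCSC replicate 2 by -1.05 (adjusted p = 0.00483).

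Of the enzymes that decide the fate of pyruvate, the 2 lactate dehydrogenase subunits moved in opposite directions. LDHA, whose tetramer favours making lactate and which HIF induces, read 14.97 and 14.87 in Monolayer, 14.25 and 14.62 in Sphere, and 14.35 and 14.45 in iCSC. LDHB, whose tetramer favours using lactate, read 14.31 and 14.2 in Monolayer, 14.61 and 14.66 in Sphere, and 14.77 and 14.82 in iCSC. For both subunits the Monolayer arrays lay outside the range of the 4 spheroid arrays, above them for LDHA and below them for LDHB. LDHA fell by 0.48 ± 0.12 in Sphere (limma, adjusted p = 0.0149) and differed by -0.51 ± 0.12 in iCSC (adjusted p = 0.0121) from Monolayer. LDHB rose by 0.38 ± 0.07 in Sphere (adjusted p = 0.00299) and was 0.54 ± 0.07 higher in iCSC (adjusted p = 0.000756). Both LDHA calls were lost without Monolayer replicate 1 (adjusted p = 0.106 for Sphere and 0.0931 for iCSC) or Monolayer replicate 2 (0.0607 and 0.0553), and that for iCSC also without iCSC replicate 1 (0.061). Both LDHB calls were lost with chromosome medians removed, at -0.11 for Sphere and 0.00 for iCSC (limma, adjusted p = 0.174 and 0.971).

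PDK1, the HIF-induced kinase that shuts pyruvate dehydrogenase, read 8.6 and 8.63 in Monolayer, 8.88 and 8.83 in Sphere, and 10.12 and 9.29 in iCSC. Both iCSC arrays were above all others but stood well apart from each other. PDK1 was 1.09 ± 0.25 higher in iCSC than in Monolayer (limma, adjusted p = 0.0111) and 0.85 ± 0.25 higher than in Sphere (adjusted p = 0.0395). The first did not hold without Monolayer replicate 1 (adjusted p = 0.0725) or Monolayer replicate 2 (0.066), and the second without either Monolayer array (0.0898 for both), Sphere replicate 1 (0.143) or Sphere replicate 2 (0.16).

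**Figure D2:**
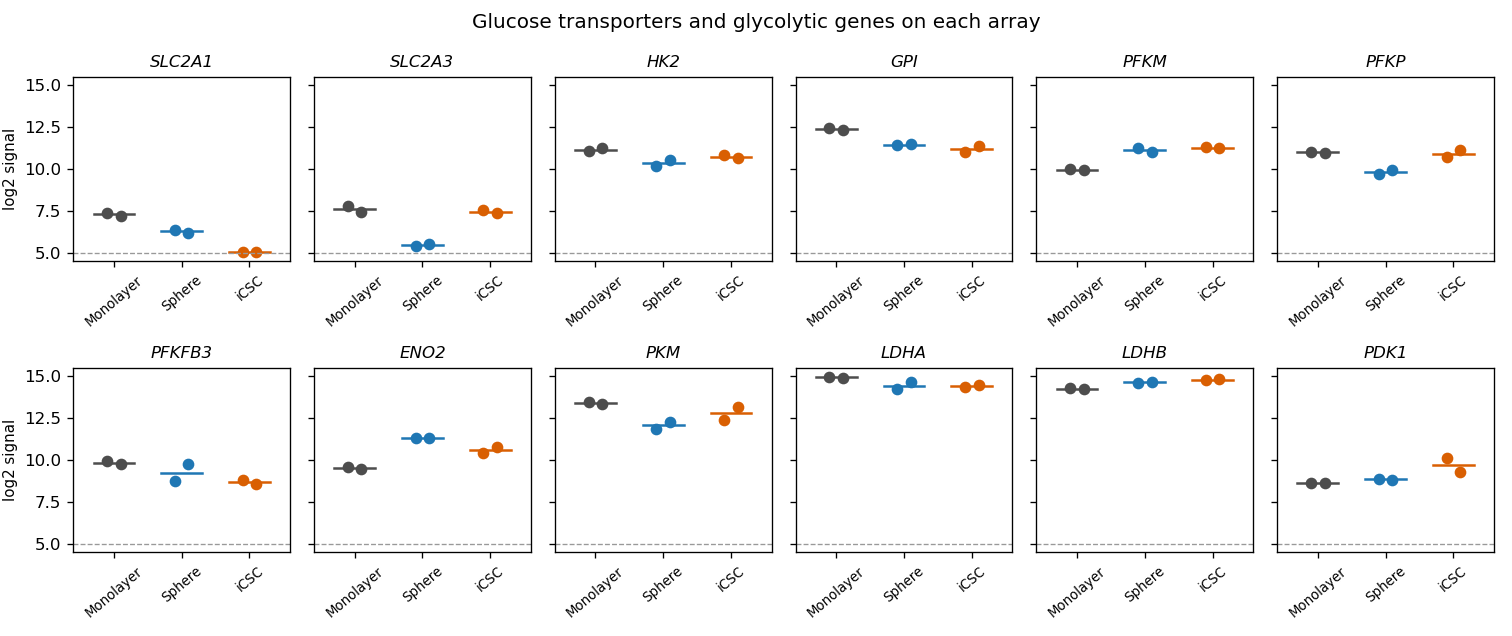
Log2 GCRMA signal (y axis) of 12 glycolytic members on each array, as points, with the mean of each culture as a bar and the background limit of log2 5 as a dashed line. SLC2A1 falls stepwise to 5.06 and 5.03 in iCSC, SLC2A3 and PFKP are low in Sphere alone, and PFKM, ENO2 and LDHB are higher in both spheroid cultures than in Monolayer.

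The 4 glycolytic members that rose in Sphere all lie on chromosome 12, as do SLC2A3 and GAPDH. On that chromosome the median of 569 tested genes was 0.49 higher in Sphere than in Monolayer and 0.54 higher in iCSC than in Monolayer, with 55.2% and 57.8% of its genes called higher. Of the 16 tested glycolytic members on other chromosomes, 9 fell in Sphere, 0 rose and 7 had no call, with a median of -0.51. Between iCSC and Monolayer the chromosome 12 members gave 4 higher and 0 lower of 6, and those elsewhere 1 higher and 5 lower of 16. With the median of each chromosome removed, ENO2 and PFKM remained higher in Sphere (1.27 and 0.69, limma, adjusted p = 0.00021 and 0.00162), while LDHB and TPI1 turned to -0.11 and -0.19 with no call (adjusted p = 0.174 and 0.143), the LDHB difference between iCSC and Monolayer went to 0.00 (adjusted p = 0.971) and that of TPI1 to -0.03 (adjusted p = 0.842), and GAPDH became lower (-0.56, adjusted p = 0.000676). SLC2A3, not called between iCSC and Monolayer as fitted, was then lower in iCSC than in Monolayer (-0.7, limma, adjusted p = 0.0159) as well as in Sphere (-2.65, adjusted p = 3.3e-05). PKM lies on chromosome 15, whose median was -0.46 between Sphere and Monolayer and 0.47 between iCSC and Sphere. With chromosome medians removed, PKM gave -0.92 in Sphere against Monolayer (limma, adjusted p = 0.0227) and 0.27 in iCSC against Sphere with no call (adjusted p = 0.482). The copy number of these chromosomes was not measured here, and its part in these results was not tested.

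**Figure D3:**
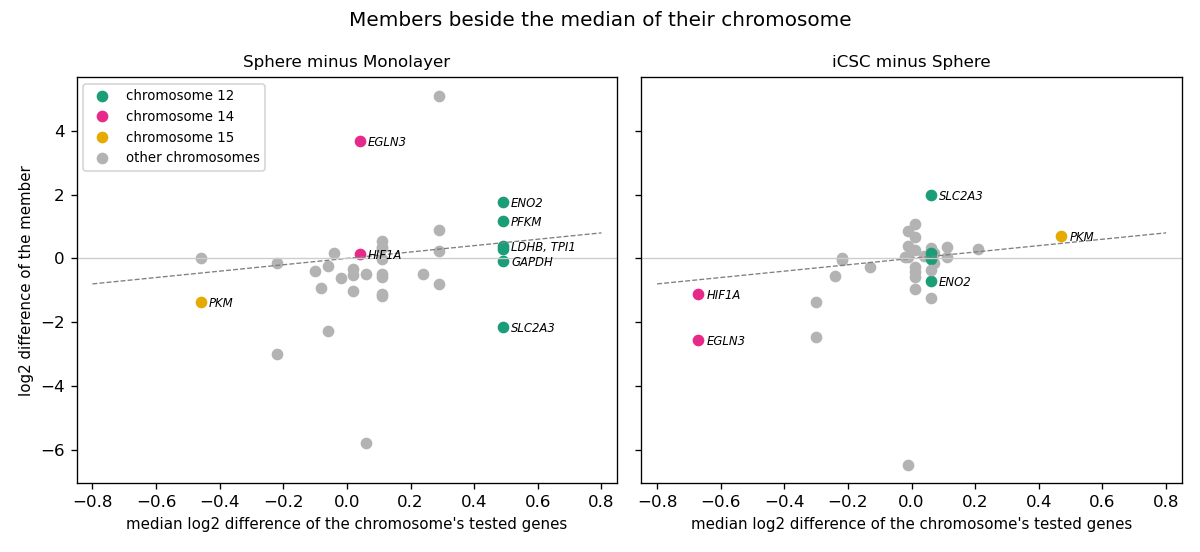
Log2 difference of each of the 36 tested members (y axis) against the median log2 difference of all tested genes on its chromosome (x axis), for Sphere minus Monolayer and iCSC minus Sphere. The dashed line marks equality of both, and members on chromosomes 12, 14 and 15 are coloured. On chromosome 12, with a median of 0.49 in Sphere minus Monolayer, ENO2 and PFKM lie above the line and SLC2A3 far below it, and HIF1A and EGLN3 lie below the chromosome 14 median of -0.67 in iCSC minus Sphere.

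HIF-related transcripts changed in both directions in Sphere and mostly fell in iCSC. Of 14 tested members, 4 rose and 5 fell in Sphere against Monolayer, a called share (64.3%) near that of all tested genes (59.0%, with 30.0% higher and 29.1% lower). ADM, NDRG1 and EGLN3 passed the filter only through the culture where they were high (EGLN3 also touched the limit on 1 iCSC array, at 5.01), so the filter set their difference, and counts are also given over the other 11. Among these, 3 rose, 3 fell and 5 had no call in Sphere (median -0.15), 1 rose and 6 fell in iCSC against Sphere (median -0.56), and 2 were higher and 7 lower in iCSC against Monolayer (median -0.68). Over all tested genes, 19.2% were called lower between iCSC and Sphere and 26.6% between iCSC and Monolayer. Without Monolayer replicate 1, the count of called HIF members between iCSC and Monolayer went from 11 to 7 of 14.

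**Figure D4:**
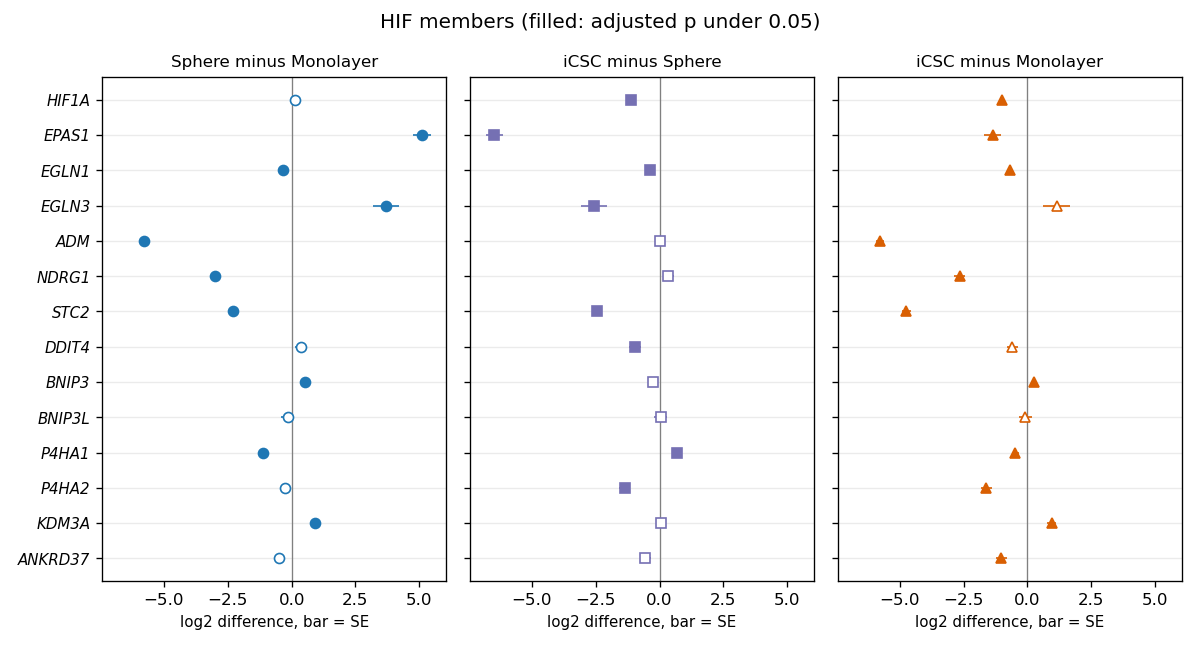
Log2 differences (x axis, bar = SE) of the 14 tested HIF subunits, oxygen sensors and HIF-induced genes in the 3 comparisons. Filled symbols have an adjusted p under 0.05, 9 in Sphere minus Monolayer, 8 in iCSC minus Sphere and 11 in iCSC minus Monolayer. EPAS1 spans the widest range, from 5.10 to -6.47.

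EPAS1 and HIF1A, the 2 alpha subunits, followed different courses. EPAS1 read 6.34 and 5.81 in Monolayer, 11.52 and 10.85 in Sphere, and 5.07 and 4.37 in iCSC. Sphere was far above both other cultures, and 1 of the 2 iCSC arrays was under the background limit. EPAS1 rose by 5.10 ± 0.34, a fold of 34.4, in Sphere (limma, adjusted p = 3.77e-05), and iCSC was -6.47 ± 0.34 lower than Sphere (adjusted p = 2.98e-05), at least 71-fold with the array under the limit taken as 5. It was also -1.36 ± 0.34 lower in iCSC than in Monolayer (adjusted p = 0.0144), a call lost without Monolayer replicate 1 (adjusted p = 0.106) or iCSC replicate 2 (0.063). EPAS1 was the only member higher in Sphere and lower in iCSC than in Monolayer. Its values come from 1 probe set, since its other 2 were under the limit on all 6 arrays. The neuroblast markers were also highest in Sphere, as given for ENO2, and their part in the EPAS1 result was not tested. Of the endothelial markers, another cell type known for EPAS1, CDH5, KDR and VWF were under the limit on all arrays, and the summed signal of the list lay between 5.22 and 6.38. The fourth, PECAM1, read 2.98 on both Monolayer arrays, 5.45 and 5.73 in Sphere, and 3.74 on both iCSC arrays. It passed the filter through Sphere alone, which set its direction. Of its 5 probe sets, the 1 with the highest mean did not pass the filter, and these values are from another. The part of PECAM1 in the EPAS1 result was not tested.

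HIF1A read 13.92 and 13.9 in Monolayer, 14.05 and 14.06 in Sphere, and 13 and 12.85 in iCSC. Only the iCSC arrays stood apart, below the others. HIF1A differed by 0.15 ± 0.07 between Sphere and Monolayer with no call (limma, adjusted p = 0.117), and was lower in iCSC than in Sphere (-1.13 ± 0.07, a fold of 2.19, adjusted p = 5.81e-05) and than in Monolayer (-0.98 ± 0.07, adjusted p = 7.08e-05). HIF1A lies on chromosome 14, where 66.5% of 343 tested genes were lower in iCSC than in Sphere, with a median of -0.67. With chromosome medians removed, HIF1A was -0.47 lower in iCSC than in Sphere (adjusted p = 0.00511) and -0.36 lower than in Monolayer (adjusted p = 0.00904).

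The oxygen sensors differed too. EGLN1 (PHD2), the main HIF prolyl hydroxylase, read 10.63 and 10.47 in Monolayer, 10.18 and 10.28 in Sphere, and 9.87 and 9.86 in iCSC. The cultures did not overlap and iCSC was lowest. EGLN1 was -0.68 ± 0.10 lower in iCSC than in Monolayer (limma, adjusted p = 0.00162), and the smaller steps, -0.32 ± 0.10 to Sphere (adjusted p = 0.032) and -0.36 ± 0.10 from Sphere to iCSC (adjusted p = 0.0302), passed the threshold narrowly. The first of these was lost without any 1 array of Monolayer or Sphere (adjusted p between 0.0557 and 0.191) and the second without any 1 array of the 6 (0.0556 to 0.134). The other 2 tested EGLN1 probe sets gave larger differences from Monolayer, -0.88 and -1.1 in Sphere and -1.42 and -1.69 in iCSC, and no call between iCSC and Sphere (-0.54 and -0.6).

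EGLN3 (PHD3), a prolyl hydroxylase that HIF itself induces, read 3.94 and 2.65 in Monolayer, 7.18 and 6.8 in Sphere, and 3.84 and 5.01 in iCSC. The Sphere arrays alone were clearly above background. EGLN3 was at least 3.97-fold higher in Sphere than in Monolayer (limma, adjusted p = 0.00117), where the bound takes values under the limit as 5, and at least 3.96-fold lower in iCSC than in Sphere (-2.56 ± 0.52 as fitted, adjusted p = 0.00997). That iCSC to Sphere call failed without Sphere replicate 1 (adjusted p = 0.0727). Without iCSC replicate 1, EGLN3 was called higher in iCSC than in Monolayer (1.72, adjusted p = 0.0446), against 1.14 ± 0.52 with all arrays (adjusted p = 0.109), but with values under the limit taken as 5 the 2 cultures were equal to within 0.01.

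Among the secreted and stress-response genes that HIF induces, 4 were tested. ADM and NDRG1 passed the filter through Monolayer alone, which set their direction, and STC2 and DDIT4 did not depend on it. ADM (adrenomedullin), a vasodilator peptide gene widely used as a hypoxia readout, read 8.07 and 8.04 in Monolayer, 2.33 and 2.2 in Sphere, and 2.2 and 2.34 in iCSC. It was thus measured in Monolayer alone, at least 8.31-fold above Sphere (limma, adjusted p = 1.21e-06) and above iCSC (adjusted p = 1.67e-06). NDRG1, a stress-response gene, read 7.37 and 6.94 in Monolayer, 4.29 and 4 in Sphere, and 4.49 and 4.5 in iCSC. All 4 spheroid arrays were under the limit, and Monolayer was at least 4.45-fold above both (adjusted p = 5.2e-05 and 0.000121).

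STC2, which encodes the secreted glycoprotein stanniocalcin 2, read 10.83 and 10.61 in Monolayer, 8.34 and 8.52 in Sphere, and 5.8 and 6.15 in iCSC. The cultures formed 3 separate steps, all above background. STC2 fell by 2.29 ± 0.17 in Sphere (limma, adjusted p = 7.15e-05), was -2.45 ± 0.17 lower again in iCSC than in Sphere (adjusted p = 0.000112), and lay 26.9-fold under Monolayer in iCSC (-4.75 ± 0.17, adjusted p = 4.35e-06). A second STC2 probe set, under the limit on all spheroid arrays, fell in both against Monolayer and gave -0.42 between iCSC and Sphere with no call (adjusted p = 0.0815). The epithelial marker list fell alongside ADM, NDRG1 and STC2, its summed signal going from 13.05 and 12.88 (log2) in Monolayer to between 8.15 and 8.54 on the 4 spheroid arrays, with 2 of its 4 genes tested and EPCAM and CDH1 under the limit on all arrays. It was not the only list to do so: of the 6 mesenchymal neuroblastoma markers 5 were lower and 1 higher in Sphere than in Monolayer. In iCSC 3 were lower and 1 higher than in Monolayer. The part of either list in these results was not tested.

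DDIT4 (REDD1), which restrains mTOR signalling in hypoxia, read 9.35 and 8.99 in Monolayer, 9.23 and 9.83 in Sphere, and 8.66 and 8.5 in iCSC. Monolayer and Sphere overlapped and iCSC was lowest. DDIT4 was lower in iCSC than in Sphere (-0.95 ± 0.23, limma, adjusted p = 0.0173), a call lost without Sphere replicate 2 (adjusted p = 0.0844) or iCSC replicate 2 (0.0678), and gave -0.59 ± 0.23 against Monolayer (adjusted p = 0.0629).

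The mitophagy receptors BNIP3 and BNIP3L differed. BNIP3 read 11.19 and 11.18 in Monolayer, 11.75 and 11.69 in Sphere, and 11.54 and 11.37 in iCSC, so both spheroid cultures stood slightly above Monolayer. It rose by 0.54 ± 0.09 in Sphere (limma, adjusted p = 0.00236). The smaller excess in iCSC over Monolayer, 0.27 ± 0.09 (adjusted p = 0.0394), was lost without any 1 array other than iCSC replicate 2 (adjusted p between 0.0626 and 0.157), and the second BNIP3 probe set had no call in any comparison. BNIP3L lay between 11.63 and 12.36 on all arrays with no call.

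The hydroxylases also split. P4HA1 and P4HA2 encode catalytic subunits of collagen prolyl 4-hydroxylase. P4HA1 read 9.57 and 9.52 in Monolayer, 8.41 and 8.41 in Sphere, and 9.17 and 8.98 in iCSC. Sphere was lowest and iCSC between, without overlap. P4HA1 fell by 1.13 ± 0.12 in Sphere (limma, adjusted p = 0.00032) and was 0.67 ± 0.12 above Sphere in iCSC (adjusted p = 0.00599). It was -0.47 ± 0.12 lower in iCSC than in Monolayer (adjusted p = 0.0163), which was lost without Monolayer replicate 1 (adjusted p = 0.101) or Monolayer replicate 2 (0.0762). P4HA2 read 8.29 and 8.08 in Monolayer, 7.81 and 8.05 in Sphere, and 6.33 and 6.82 in iCSC. The low arrays were those of iCSC, -1.36 ± 0.21 under Sphere (adjusted p = 0.00351, and 0.0501 without variance moderation) and -1.61 ± 0.21 under Monolayer (adjusted p = 0.00103), while Sphere and Monolayer differed by -0.25 ± 0.21 (adjusted p = 0.35). P4HA2 and STC2 lie on chromosome 5, where 52.3% of 495 tested genes were lower in iCSC than in Monolayer, with a median of -0.41. With chromosome medians removed, P4HA2 gave -1.21 and STC2 -4.35 in that comparison (limma, adjusted p = 0.0028 and 3.54e-06). The part of the chromosome 5 shift was not tested.

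KDM3A, a histone H3 lysine 9 demethylase, read 8.95 and 8.91 in Monolayer, 9.99 and 9.68 in Sphere, and 10.1 and 9.65 in iCSC. Both spheroid cultures stood above Monolayer and overlapped each other. KDM3A rose by 0.90 ± 0.18 in Sphere (limma, adjusted p = 0.00531) and was 0.95 ± 0.18 higher in iCSC than in Monolayer (adjusted p = 0.00492), calls that were lost without variance moderation (adjusted p = 0.0571 and 0.0569). ANKRD37, a small ankyrin-repeat protein gene, read 7.73 and 7.44 in Monolayer, 7.19 and 7.03 in Sphere, and 6.33 and 6.78 in iCSC. Its cultures did not overlap, and the difference was called between iCSC and Monolayer (-1.03 ± 0.21, adjusted p = 0.00664), but not without Monolayer replicate 1 (adjusted p = 0.0567).

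**Figure D5:**
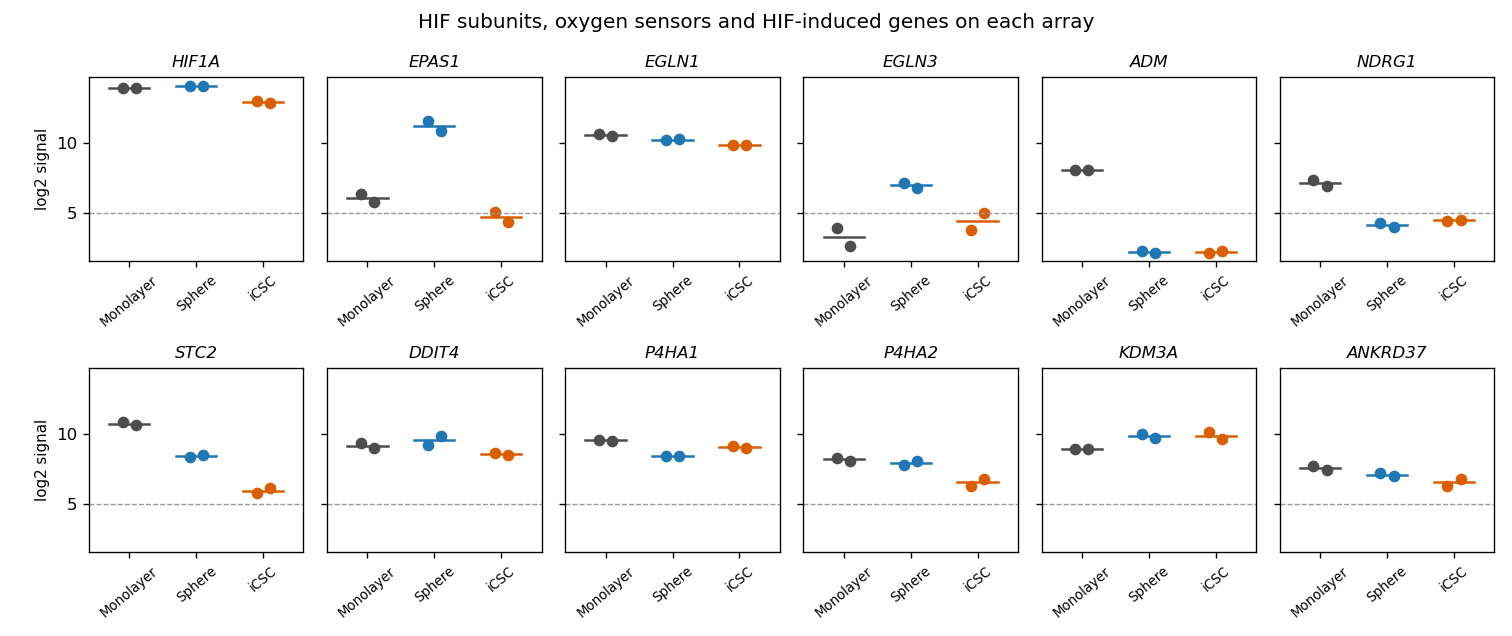
Log2 GCRMA signal (y axis) of 12 HIF subunits, oxygen sensors and HIF-induced genes on each array, as points, with the mean of each culture as a bar and the background limit of log2 5 as a dashed line. EPAS1 and EGLN3 are high in Sphere alone, ADM and NDRG1 lie above the limit in Monolayer alone, and STC2 falls in 3 steps to 5.8 and 6.15 in iCSC.

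Across both sets, 9 members were lower in Sphere and in iCSC than in Monolayer (SLC2A1, GPI, ALDOA, LDHA, EGLN1, ADM, NDRG1, STC2 and P4HA1) and 6 were higher in both (PFKM, TPI1, ENO2, LDHB, BNIP3 and KDM3A). These counts share the Monolayer arrays. Over all tested genes, 29.1% were lower and 30.0% higher in Sphere, and 26.6% lower and 29.0% higher in iCSC, than in Monolayer. The shares of all genes with the same call in both, or with no call in any comparison, were not counted. ADM and NDRG1 passed the filter through Monolayer alone, which set their direction. The TPI1 call in Sphere and the BNIP3 call in iCSC did not hold in most alternative settings. SLC2A3, PFKP and P4HA1 were lower in Sphere than in Monolayer and higher in iCSC than in Sphere. ENO2, EPAS1 and EGLN3 took the opposite course, EGLN3 in a direction set by the filter. HK1, PFKL, ALDOC, PFKFB4, GAPDH, PGK1 and BNIP3L, 7 of 36, had no call in any comparison. Probe sets were compared in a separate fit over all 18059 passing probe sets. Of the 15 members with several of them, 13 per comparison had the same call, or no call, in all, and 0 had calls in opposite directions. Calls were mixed for BNIP3 and HK2 in Sphere against Monolayer, EGLN1 and STC2 in iCSC against Sphere, and BNIP3 and SLC2A3 in iCSC against Monolayer. In that fit TPI1 had no call in Sphere against Monolayer (limma, adjusted p = 0.0523).

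Other genes of glucose metabolism include steps that run the pathway backward. Of 25 further enzymes of glycolysis and gluconeogenesis, 10 were tested (2 of them through the filter), and 5 rose and 3 fell in Sphere, where 59.0% of all genes were called. FBP1, the gluconeogenic fructose-1,6-bisphosphatase, read 3.21 and 2.54 in Monolayer, 9.26 and 8.62 in Sphere, and 9.57 and 9.88 in iCSC. It was measured in the spheroid cultures alone, at least 15.4-fold above Monolayer in Sphere (limma, adjusted p = 1.16e-05) and at least 26.5-fold above it in iCSC (adjusted p = 9.53e-06). PCK2, mitochondrial phosphoenolpyruvate carboxykinase, was at least 5.44-fold higher in Sphere than in Monolayer (adjusted p = 8.24e-05) and at least 5.22-fold lower in iCSC than in Sphere (adjusted p = 0.00159), with 1 of the 2 iCSC arrays under the limit. FBP1 and PCK2 passed the filter only through the spheroid cultures, so the filter set their direction against Monolayer.

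PGM1, which links glycogen to glycolysis, read 7.61 and 7.6 in Monolayer, 11.13 and 11.08 in Sphere, and 9.33 and 9.67 in iCSC. Sphere was highest and iCSC between, without overlap. PGM1 was 3.50 ± 0.14 higher in Sphere than in Monolayer, a fold of 11.3 (limma, adjusted p = 4.07e-06), and -1.60 ± 0.14 lower in iCSC than in Sphere (adjusted p = 0.000269). ENO3, the muscle enolase, was 1.58 ± 0.23 above Sphere in iCSC (adjusted p = 0.00265). Within the pentose phosphate pathway 3 of 7 tested genes rose and 1 fell in Sphere (57.1% called, against 59.0% of all genes), led by PGLS (6-phosphogluconolactonase, 1.21 ± 0.11, adjusted p = 0.000202) and TKT (transketolase, -0.68 ± 0.09, adjusted p = 0.000925).

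Of the other glucose and lactate transporters, 5 of 13 were tested, 2 through the filter. SLC16A7 (MCT2), a high-affinity pyruvate and lactate carrier, and EMB (embigin), its membrane partner, were both under the limit in Monolayer and highest in iCSC. Both passed the filter only through the spheroid cultures, which set their direction against Monolayer. EMB was 1.83 ± 0.22 higher in iCSC than in Sphere (limma, adjusted p = 0.00108) and SLC16A7 1.07 ± 0.18 higher (adjusted p = 0.00488). For SLC16A7, 1 of the 2 Sphere arrays was just under the limit (4.99). SLC2A13, a myo-inositol transporter on chromosome 12, fell by 1.91 ± 0.18 in Sphere (adjusted p = 0.000173), and SLC2A6 was -1.57 ± 0.20 lower in iCSC than in Sphere (adjusted p = 0.00151).

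Pyruvate enters mitochondria for oxidation by pyruvate dehydrogenase, which PDK kinases turn off and PDP phosphatases turn on. Of 10 tested genes of this step, 3 rose and 2 fell in Sphere, and 3 were higher and 5 lower in iCSC than in Monolayer, against 59.0% and 55.6% of all genes called. PDP1, the phosphatase, read 12.22 and 12.27 in Monolayer, 9.96 and 10.05 in Sphere, and 9.97 and 9.91 in iCSC. Both spheroid cultures were far below Monolayer, by -2.24 ± 0.09 (limma, adjusted p = 3.84e-06) and -2.30 ± 0.09 (adjusted p = 4.75e-06). The kinase PDK3 rose by 1.81 ± 0.12 in Sphere (adjusted p = 3.75e-05) and was -1.06 ± 0.12 lower in iCSC than in Sphere (adjusted p = 0.000857). PDHB, the beta subunit of the dehydrogenase, fell by 1.11 ± 0.08 in Sphere (adjusted p = 5.03e-05).

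Other parts of the oxygen-sensing machinery were measured as well. Of 12 tested partners and sensors, 2 rose and 3 fell in Sphere, and 1 rose and 1 fell in iCSC against Sphere (59.0% and 38.5% of all genes were called). Both that rose in Sphere, ARNT2 and HIF3A, passed the filter through the culture where they were high, so the filter set their direction. ARNT2, the neuronal partner of the alpha subunits, read 2.35 on both Monolayer arrays, 7.9 and 6.82 in Sphere, and 2.29 and 2.3 in iCSC. Like EPAS1 and EGLN3, it was high in Sphere alone, at least 5.15-fold above Monolayer (limma, adjusted p = 4.18e-05) and above iCSC (adjusted p = 8.6e-05). HIF3A, an alpha subunit with inhibitory forms, was at least 2.7-fold higher in Sphere than in Monolayer (adjusted p = 0.000805). CITED2, which competes with HIF for its coactivator, read 10.34 and 10.76 in Monolayer, 5.64 and 4.72 in Sphere, and 6.29 and 5.76 in iCSC. It was high in Monolayer alone and differed by -5.37 ± 0.35 in Sphere (adjusted p = 3.37e-05) and -4.53 ± 0.35 in iCSC (adjusted p = 9.81e-05). With the Sphere array under the limit taken as 5, the Sphere difference of CITED2 was -5.23. HIF1AN, the asparaginyl hydroxylase FIH, was 0.67 ± 0.19 above Sphere in iCSC (adjusted p = 0.0333).

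Of 40 other genes known to respond to HIF, 30 were tested, 6 of them through the filter, and they moved in both directions: 9 rose and 9 fell in Sphere against Monolayer, 7 rose and 9 fell in iCSC against Sphere, and 11 were higher and 10 lower in iCSC than in Monolayer. These are 60%, 53.3% and 70% called, against 59.0%, 38.5% and 55.6% of all genes. The medians were -0.05, -0.11 and -0.15, against 0.01, 0.01 and 0.02 over all tested genes. VEGFA, the best-known HIF target, lay between 9.9 and 10.46 on all 6 arrays with differences of -0.12 ± 0.19, 0.13 ± 0.19 and 0.01 ± 0.19 and no call. IGFBP3, an insulin-like growth factor binding protein gene, was at least 12.4-fold lower in iCSC than in Sphere (limma, adjusted p = 0.000344), and the circadian repressor BHLHE40 at least 9-fold lower (adjusted p = 0.00161). CXCR4, a chemokine receptor, read 3.99 and 3 in Monolayer, 5.53 and 5.61 in Sphere, and 8.68 and 8.57 in iCSC, and stood in iCSC at least 12.3-fold above Monolayer (adjusted p = 3.9e-05). BHLHE41, a second circadian repressor, was at least 1.6-fold higher in Sphere than in either other culture (adjusted p = 3.36e-05 and 5.37e-05), and TMEM45A fell by 2.74 ± 0.22 in Sphere (adjusted p = 8.49e-05). IGFBP3, BHLHE40, CXCR4 and BHLHE41, given as bounds, passed the filter through cultures where they were high, which set those directions.

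The arrays of a culture resembled each other closely (Pearson's r across genes, which are not independent replicates, 0.984 to 0.996) and those of different cultures much less (0.729 to 0.859). For ACTB the 3' to 5' difference, which reflects how intact the RNA is, was 1.40 to 1.47 in iCSC against 1.16 to 1.25 in the other cultures, so it moved with the iCSC comparisons, and its part in them was not tested. As for the label, the summed neuroblast markers were lowest in Monolayer and highest in Sphere, though GATA3 (8.68 and 8.21) and ISL1 (9.04 and 8.94) were above the limit in Monolayer as well. The summed mesenchymal neuroblastoma markers, carried by VIM, read between 14.21 and 15.6 on all arrays, but 5 of the 6 were lower in Sphere than in Monolayer, among them AXL, under the limit on both Sphere arrays, while PRRX1 was 4.42 higher. In iCSC 4 of the 6 were higher than in Sphere and 1 was lower. The summed fibroblast list went from 10.21 and 10.36 in Monolayer to between 12.91 and 13.68 in the spheroid cultures, but its members did not move alike. DCN, LUM and PDGFRB were lower in iCSC than in Sphere (-2.01, -2.96 and -2.67). COL1A1 was 0.59 higher there, as was COL1A2, which passed the limit in iCSC alone. PDGFRB had no call between iCSC and Monolayer (-0.38). Of the leukocyte markers, PTPRC alone was above the limit, with a summed list signal of 11.65 to 12.53 in Monolayer and Sphere and 5.12 to 5.13 in iCSC. Their part in the results was not tested.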

How the data were processed

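Messenger RNA of SK-N-AS was measured on 6 HG-U133 Plus 2.0 arrays, 2 per culture. Per the labels' protocols, RNA from RNeasy columns was amplified and biotin-labelled by the MessageAmp Premier method. The deposited values are log2 signals that the authors made with GCRMA, per the submitters' processing notes, which also name Partek, with the version and settings of each not given in the sources used here. Unexpressed probe sets are compressed by GCRMA, so where a culture lay under log2 5 on all its arrays the fold is a lower bound with values under 5 set to 5; where it did on 1 array, this is said.

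Groups came from sample titles. Probe sets were named by the platform annotation with symbols updated to RefSeq; of 54675, 41091 carried a single symbol. Probe sets at log2 5 or more on at least 2 of 6 arrays were kept, with the highest-mean probe set per gene (10459 genes). Limma 3.58.1 in R 4.3.3 fitted a mean per culture with a trended empirical Bayes prior on 3 residual degrees of freedom, two-sided, with Benjamini-Hochberg adjustment over all genes and calls at an adjusted p under 0.05. The fit was also run on simulated data with independent noise and few changed genes. That run does not cover arrays that are not independent or values near background. Figures used matplotlib 3.10.9.

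The members and lists were chosen with earlier results of these data known. All members are accounted for. Values on every array are given for members called with a log2 difference of at least 1 in size and for HIF1A and EPAS1, and for some others chosen after their values were seen. Up to 3 called genes per list of other pathway genes, those with the largest difference and no overlap between arrays, could be named, and VEGFA was added after its values were seen. Alternatives covered the filter, floor, normalization, probe set choice, chromosome medians, variance moderation, replicate block, cultures fitted and each array left out. The number of arrays limits the precision.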

Additional observations from a re-analysis of the deposited data

Results flagged for a closer look

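EPAS1 was higher in Sphere and lower in iCSC than in Monolayer on every array, and the difference between iCSC and Sphere was itself tested: -6.47 ± 0.34 (log2, SE; limma with Benjamini-Hochberg adjustment, adjusted p = 2.98e-05). Both differences from Monolayer use the same Monolayer arrays, and 1 of the 2 iCSC arrays was under the background limit.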

How the results depend on the processing

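Over the 14 to 16 alternatives that could be run for each member, 14 of 23 called members kept their call in Sphere against Monolayer, 6 of 13 between iCSC and Sphere and 10 of 21 between iCSC and Monolayer. With chromosome medians removed, LDHB in Sphere against Monolayer turned to -0.11 and TPI1 to -0.19, and TPI1 in iCSC against Monolayer to -0.03. Without x_at and s_at probe sets, which left 9 tested members of each set, 4, 3 and 2 glycolytic members were called in Sphere against Monolayer, iCSC against Sphere and iCSC against Monolayer, and 5 HIF members in each of the first and second. Without variance moderation, 9, 2 and 5 glycolytic members were called in the same order, and 4 HIF members between iCSC and Sphere and 7 between iCSC and Monolayer, 23 of 57 member calls over the 3 comparisons were lost, and all genes called in iCSC against Sphere numbered 2281 in place of 4022. With 1 array left out at a time, the genes called ranged from 4530 to 6604, 2574 to 3883 and 3957 to 5646 in the 3 comparisons, the fewest in iCSC against Sphere coming without Sphere replicate 1. Called glycolytic members then ranged from 10 to 14, 4 to 6 and 5 to 11, and called HIF members from 8 to 9, 6 to 8 and 7 to 11. Where an array left out leaves a culture with 1, that array is assumed to vary like the others. Apart from losses that follow from fewer probe sets or arrays, the cause was not tested. The labels do not say whether array numbers pair the cultures. Same-numbered deviations correlated at 0.019, 0.173 and -0.053 in the 3 comparisons, which with 2 arrays per culture cannot decide it. With the replicate number as a block, 6219, 4106 and 5891 genes, 13, 6 and 12 glycolytic members and 9, 8 and 11 HIF members were called. Under that block PKM became called between iCSC and Sphere (adjusted p = 0.0332) and between iCSC and Monolayer (0.0341) and HK2 between iCSC and Monolayer (0.0467), TPI1 between Sphere and Monolayer was lost (0.0528), and no other member call changed. Background limits ADM, NDRG1, EGLN3 and the iCSC level of EPAS1 to bounds or near-bounds.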
